A study of Mus musculus with 13 samples.

Results

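The genes of mouse chromosome 7 were followed in position order, before and after spontaneous immortalization of mouse embryonic fibroblasts (MEFs). A gene was a member when its first listed chromosome was 7 and it reached 1 CPM (a count scaled to the size of its library) or more in all 6 primary libraries. Of the 4719 chromosome 7 genes in the count tables, 1114 were members, among 55487 genes in all, and 14154 autosomal genes passed the same limit. The members nearest to the limit were Ntrk3 and Ifitm1, with lowest primary values of 1.00 and 1.01 CPM, and the genes just outside were Gm45235 and 9330104G04Rik with 0.991 and 0.986 CPM. For each library and gene, the log2 ratio to the mean of the primary libraries of the same genotype was taken (0.1 CPM added to both sides), and the median of all autosomal genes was subtracted. A value of 0 therefore stands for the typical autosomal gene of that library, and this value is called the centred ratio. Since the chromosome was chosen from these ratios of immortalized to primary cells, they are given as a description, without tests.

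The study follows MEFs through serial passage into senescence and out of it as established lines. WT primary cultures 3, 4 and 5 and the immortalized lines 3, 4 and 5 grown from them gave 6 libraries. The other 7 libraries are labelled Prkd3-/-: primary cultures 13, 14 and 15 and immortalized lines 13, 13a, 14 and 15, where the meaning of the letter in 13a is not stated. All cells grew in medium with 10% fetal calf serum, which was raised to 20% once they were senescent and, for the WT lines, was brought back to 10% after immortalization, and all libraries were made from polyadenylated RNA. The medium, with antibiotics and β-mercaptoethanol, was the same for both genotypes, and each immortalized library is 1 line that grew out of colonies in prolonged culture. Reads of Prkd3, the gene of protein kinase D3, came to 34.5 to 62.1 CPM in Prkd3-/- libraries and to 66.7 to 90.6 CPM in WT libraries, or to 33.9 to 64.01 and 66.0 to 84.3 CPM by library size alone, and whole-gene counts cannot show a deleted exon. The 10 fibroblast markers (Col1a1, Vim and others) summed to between 31060 and 91805 CPM in every library. The sum does not show the level of each marker. Of these, Dcn had 120.9, 128.3 and 119.3 CPM in WT primary cultures and 0.639, 148.03 and 438.7 CPM in WT lines 3, 4 and 5. Dcn had 10.2, 32.1 and 4.16 CPM in Prkd3-/- primary cultures. Lines 13, 13a, 14 and 15 had 0.384, 212.9, 95.1 and 0.719 CPM of it. Lum had 184.1, 186.5 and 158.8 CPM in WT primary cultures and 0.0468, 90.4 and 10.9 CPM in the WT lines. The 10 macrophage markers, of which Tyrobp and Itgam are members, summed to 691 to 713 CPM in WT primary cultures and to 102.2, 1110 and 240.5 CPM in Prkd3-/- primary cultures 13, 14 and 15, and to 10.4 to 189 CPM in the 7 lines. Fewer cells of a type and less RNA per cell cannot be told apart in such bulk libraries. Total counts were 35273408 to 100441756 per library, so that 3 counts, the limit that a count of 0 allows, correspond to 0.0299 to 0.0850 CPM, for counting error only.

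Mouse chromosome 7 is rich in genes that arose by tandem duplication, among them the olfactory and vomeronasal receptors of sensory neurons, the kallikrein proteases and the zinc finger (Zfp) repressors that bind transposable elements. It also carries the imprinted domains around Peg3, Snrpn and Igf2, in which only the maternal or the paternal copy is expressed, and genes on which every cell depends, such as those of ribosomal proteins and glycolysis. Fibroblasts that escape senescence in culture are known to gain and lose chromosomes, and a change in the copy number of a chromosome usually moves the RNA of many of its genes together. Copy number was not measured here.

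The membership follows this gene content. None of the 293 olfactory receptor genes (Olfr) on the chromosome reached the limit, and 1 of 240 vomeronasal receptor genes, 2 of 32 Mrgpr genes of sensory neurons and 1 of 37 kallikrein genes (Klk) did. Of the 96 Zfp genes, 82 were members. By annotation, 918 members were protein-coding genes, 60 antisense transcripts, 56 processed pseudogenes and 10 miRNA genes. In position order the members were cut into 22 blocks of 50, with 64 in the last.

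For 4 strongly expressed members the 250 bases before the start are shown (GRCm38.p6, RefSeq, strand of the gene). In line 14 Actn4, Serpinh1 and Oat had centred ratios below 0, while Ifitm3, from the block after Oat, was within its primary range. The 4 were chosen for these values, after they were seen. Capitals mark the GC box of 6 bases, GGGCGG or its complement CCGCCC, the sequence to which Sp1 family factors bind. Actn4 lies in block 6 (chr7:28962333-28962582, minus strand), Serpinh1 in block 14 (chr7:99353240-99353489, minus strand), Oat in block 20 (chr7:132576399-132576648, minus strand) and Ifitm3 in block 21 (chr7:141010745-141010994, minus strand).
Actn4: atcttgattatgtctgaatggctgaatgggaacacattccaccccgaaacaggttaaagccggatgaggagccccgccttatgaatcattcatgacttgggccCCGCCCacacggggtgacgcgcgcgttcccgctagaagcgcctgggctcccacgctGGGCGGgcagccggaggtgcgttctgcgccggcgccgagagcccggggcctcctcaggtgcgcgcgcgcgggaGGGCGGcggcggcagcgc
Serpinh1: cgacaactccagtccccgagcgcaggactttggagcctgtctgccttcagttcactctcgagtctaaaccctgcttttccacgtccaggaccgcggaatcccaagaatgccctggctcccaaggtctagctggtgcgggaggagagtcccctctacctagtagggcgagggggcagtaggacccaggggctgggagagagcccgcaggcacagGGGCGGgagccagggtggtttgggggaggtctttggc
Oat: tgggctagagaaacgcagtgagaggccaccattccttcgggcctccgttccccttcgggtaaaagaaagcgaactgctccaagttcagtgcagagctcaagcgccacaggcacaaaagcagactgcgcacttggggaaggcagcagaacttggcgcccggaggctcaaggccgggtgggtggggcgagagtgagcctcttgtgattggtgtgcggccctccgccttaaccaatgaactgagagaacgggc
Ifitm3: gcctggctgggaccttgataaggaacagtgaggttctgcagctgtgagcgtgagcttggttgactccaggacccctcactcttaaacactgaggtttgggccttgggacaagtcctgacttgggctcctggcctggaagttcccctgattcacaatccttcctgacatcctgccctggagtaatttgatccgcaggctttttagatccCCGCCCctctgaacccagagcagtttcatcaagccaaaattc
The window of Actn4 has a GC content of 67.6% with 29 CpG and 3 GC boxes, that of Serpinh1 63.6% with 11 CpG and 1 box, that of Oat 60.0% with 14 CpG and no box, and that of Ifitm3 53.6% with 3 CpG and 1 box. RefSeq gave such a window for 803 members and for 8714 genes on the other autosomes that passed the limit. A GC box on either strand was found in 59.4% of the member windows and in 61.0% of the others, and TATAAA on either strand in 4.73% and 6.08%. The median GC content was 58.4% and 60.8%.

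In Prkd3-/- line 14 the level of the whole chromosome was lower. The median centred ratio of the 1114 members was −0.62 on the log2 scale, 0.649 times the typical autosomal gene, and no autosome of this line was lower. The next was chromosome 3 at −0.30 and the highest was chromosome 8 at 0.22. In the other lines the chromosome 7 median was 0.01, −0.03 and −0.03 in WT lines 3, 4 and 5, and 0.00, −0.17 and −0.14 in Prkd3-/- lines 13, 13a and 15. The SD of these medians was 0.0229 over the 3 WT lines and 0.272 over the 4 Prkd3-/- lines. The 6 primary libraries, measured in the same way, lay between −0.00820 and 0.0122. Thus line 14 stood below the other 3 lines of its genotype. Lines 13a and 15 lay slightly below 0, and chromosome 7 ranked as the 3rd lowest of 19 autosomes in each. WT lines and line 13 were at ranks 5 to 10. With own primary culture as the reference, which pairs samples by their number, the median of line 14 was −0.59.

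**Figure D1:**
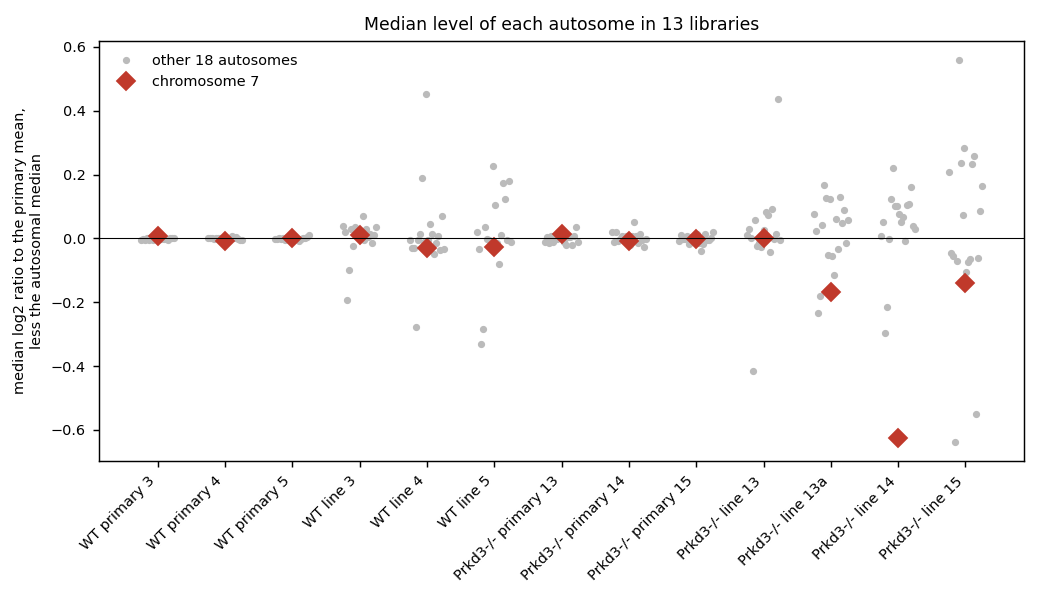
Median centred log2 ratio (y axis) of each of 19 autosomes in each of the 13 libraries (x axis). Red diamonds are chromosome 7 and grey points the other 18 autosomes. Chromosome 7 lies at −0.62 in Prkd3-/- line 14 and between −0.17 and 0.01 in the other 6 lines.

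The shift of line 14 was carried by most members and not by a few. Of the 1114 members, 972 (87.3%) were below 0 in this line, against 46.8% of the other autosomal genes, and 291 (26.1%) were at −1 or below, against 9.46%. At 1 or above were 15 members (1.35%), against 6.62% of the other autosomal genes. In 828 members (74.3%) line 14 lay below every Prkd3-/- primary library, where 35.4% of all 14154 autosomal genes did, and in 83 (7.45%) it lay above every one, where 37.2% did. The distance between the quartiles was 0.771 in members and 0.743 in the other autosomal genes of line 14, so the members were displaced with about the same spread. Of the 291 members at −1 or below, 178 (16.0% of the members) were that low in line 14 and in no other line. This was not counted over all autosomal genes or for the other lines, so nothing is read from it. In line 13a, 797 members (71.5%) were below 0. There 43.4% lay below every primary library, against 27.8% of all autosomal genes, and 14.5% above, against 30.8%. In line 15, 62.9% of the members were below 0, with 43.4% below every primary library (34.7% of all autosomal genes) and 20.8% above (35.4%). In line 13 the members were close to the other genes, with 39.2% below every primary library (39.1% of all) and 39.0% above (40.5%). The WT lines were close as well. There 41.7%, 44.7% and 45.9% of the members lay below every primary library in lines 3, 4 and 5 (43.3%, 42.9% and 43.1% of all), and 44.1%, 36.9% and 39.1% lay above (43.5%, 43.1% and 43.3% of all).

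**Figure D2:**
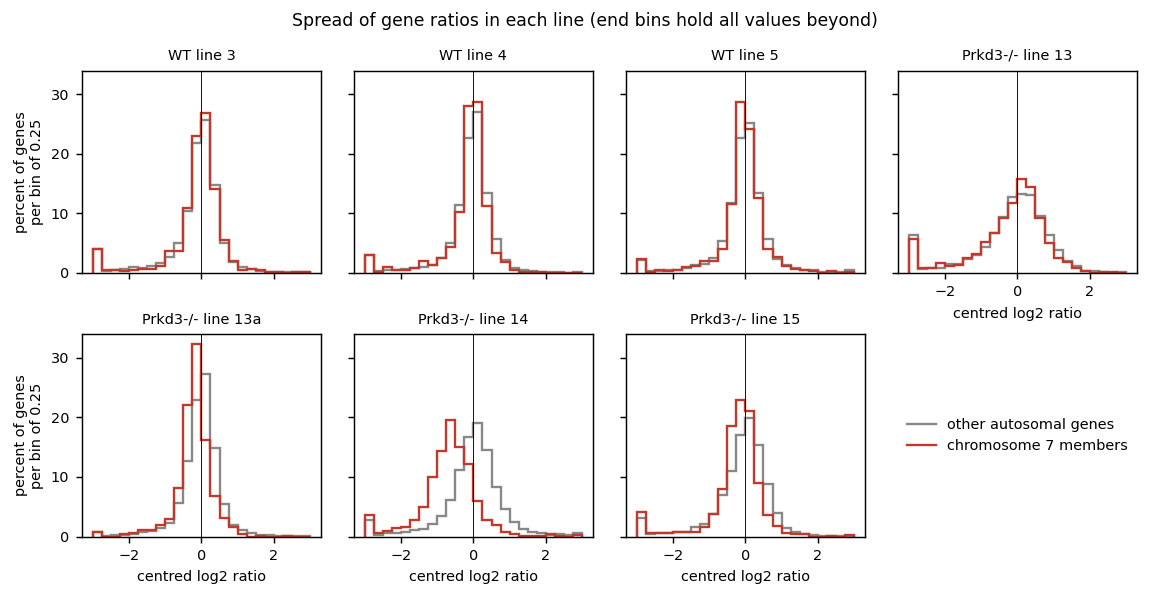
Percent of genes (y axis) per bin of 0.25 of the centred log2 ratio (x axis) in each immortalized line. Red is the 1114 chromosome 7 members and grey the other autosomal genes. The red curve is displaced to the left in Prkd3-/- line 14 (median −0.62), slightly in 13a (−0.17), and lies close to the grey one in the WT lines.

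The displacement of line 14 did not rest on one kind of gene. Splitting all autosomal genes into 3 groups of equal size by primary CPM, the members had medians of −0.51, −0.65 and −0.69 from the lowest to the highest expressed group, and the other autosomal genes had 0.07, 0.06 and 0.00. By the length a gene spans, the medians of members were −0.57, −0.63 and −0.76 from short to long. By GC content of the window before the start they were −0.65, −0.64 and −0.72 from low to high, against 0.09, 0.06 and 0.03 for the others. Members that share no exon bases with another gene had a median of −0.53 (n = 557) and those that share some −0.70 (n = 557). The other autosomal genes had 0.04 and 0.05. Protein-coding members had a median of −0.64 (n = 918) and lincRNA and antisense members together −0.71 (n = 92). The 63 pseudogenes were the exception at −0.13, and 883 pseudogenes on other autosomes had −0.04. Most are processed copies with near-identical parents elsewhere. Reads of those parents may be counted on them, so their values are uncertain, but this was not tested. For the WT table the study counted uniquely mapped reads.

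Along the chromosome, all 22 blocks of line 14 had medians at or below −0.25, from −0.38 in block 2 to −0.97 in block 16. Over all autosomes 15.2% of 283 blocks in this line were at or below −0.25. Of the 261 blocks on other autosomes, 4 were as low as the median block of chromosome 7 (−0.60), and all 4 were on chromosome 4. In WT lines no block of chromosome 7 was at or below −0.25, where the share over all autosomes was 2.83%, 4.59% and 8.48% in lines 3, 4 and 5. No block was in line 13a either (2.12% of all), although all 22 of its block medians were below 0, between −0.25 and −0.06. Line 13 had 1 such block (9.89% of all) and line 15 had 4 (12.7% of all). On the other side, the sole chromosome 7 block at or above 0.25 was block 11 of line 13 (8.83% of all). The share of such blocks over all autosomes was 0.707%, 5.3% and 2.47% in WT lines 3, 4 and 5 and 2.47%, 7.42% and 17.0% in lines 13a, 14 and 15. In the primary libraries the block medians stayed between −0.19 and 0.16.

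Line 14 was lower in most distal blocks than in the proximal blocks. Of blocks 10 to 22, all but blocks 11 (−0.42) and 13 (−0.53) lay below every one of blocks 1 to 9. The 450 members of blocks 1 to 9 had a median of −0.51 and the 664 members of blocks 10 to 22 a median of −0.72. The single division that best separates higher from lower ratios lay after Fcgrt, which recycles IgG, with a step of −0.22 that was the 5th largest of the 19 autosomes of this line. It removed 1.64% of the summed deviation of the members. Blocks 1 to 9 hold 67 of the 82 Zfp members, and the Zfp genes were less low than other genes. Among protein-coding members that are not Zfp genes the medians were −0.57 (n = 317) in blocks 1 to 9 and −0.74 (n = 520) in blocks 10 to 22. The cut between blocks 9 and 10 lies close to the division after Fcgrt, which was taken from these same ratios. The medians on its 2 sides are therefore a description and lend no support. The largest share of members at −1 or below was in block 16, with 23 of 50 (chr7:105731730-114706235, Rrp8 to Gm15500), followed by block 10 with 22 of 50, and the smallest was in block 2 with 3 of 50.

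**Figure D3:**
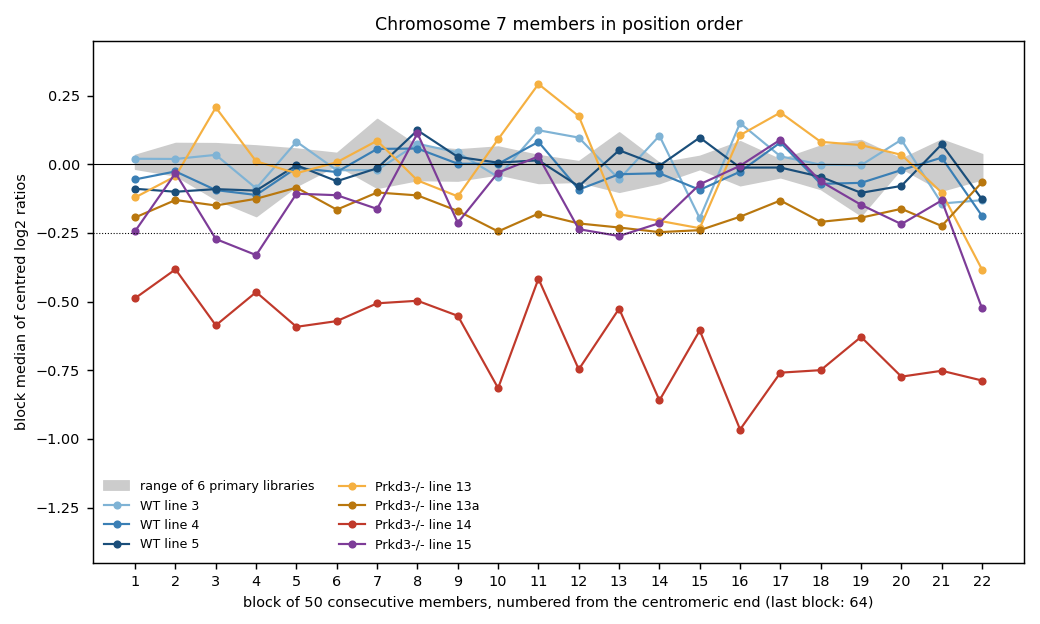
Median centred log2 ratio (y axis) of each block of 50 consecutive members, numbered from the centromeric end (x axis), in the 7 lines. The grey band is the range of the 6 primary libraries and the dotted line marks −0.25. Line 14 stays between −0.97 and −0.38 along the whole chromosome, and the last block is below 0 in all 7 lines.

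The divisions of 4 other lines lay near the distal end. In line 13 the division fell between Gm9347 and Mgmt, the gene of the enzyme that removes alkyl groups from guanine, at 136.9 Mb, with medians of 0.03 before and −0.38 after it. In line 15 it fell between Sirt3, a mitochondrial deacetylase, and Psmd13, a proteasome subunit, at 140.9 Mb, with medians of −0.13 and −0.46. WT line 3 had the same division as line 13, between Gm9347 and Mgmt, with a step of −0.19, and WT line 4 was divided between Ifitm2 and Ifitm1 with a step of −0.17. Both were the 3rd largest of their lines. WT line 5 was divided at 25.6 Mb with a step of 0.09 and line 13a at 43.8 Mb with a step of −0.07. In lines 13 and 15 the step (−0.41 and −0.34) was the largest among the 19 autosomes of the line. These 2 divisions removed little of the summed deviation of the members, 0.666% in line 13 and 0.966% in line 15. Mgmt had 20.99, 27.7 and 21.2 CPM in Prkd3-/- primary cultures 13, 14 and 15, and 7.39, 15.7, 5.84 and 27.4 CPM in lines 13, 13a, 14 and 15. In WT cells it had 23.1, 22.1 and 23.9 CPM in primary cultures and 9.93, 15.4 and 27.6 CPM in lines 3, 4 and 5. The levels of Mgmt in lines 13, 13a and 14 and in WT lines 3 and 4 were below all primary cultures of their genotype, and those of line 15 and WT line 5 were not. Psmd13 had 86.8, 98.2 and 84.6 CPM in Prkd3-/- primary cultures and 110.4, 82.2, 39.2 and 63.5 CPM in lines 13, 13a, 14 and 15, the lowest in line 14.

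The last block (64 members, Phrf1 to Mrgprf) was below 0 in all 7 lines, the sole block of chromosome 7 of which this holds. How many blocks of the other autosomes were below 0 in all 7 lines was not counted, so nothing is read from it. Its medians were −0.13, −0.19 and −0.13 in WT lines 3, 4 and 5 and −0.38, −0.06, −0.79 and −0.52 in lines 13, 13a, 14 and 15. It contains the imprinted Igf2 and H19 genes, a growth factor and a noncoding RNA that are expressed from opposite parental copies. In WT cells H19 had 3576, 3570 and 3023 CPM in primary cultures and 1.72, 2362 and 454 CPM in lines 3, 4 and 5. Igf2, which shares 64.5% of its exon bases with another gene, had 3474, 3302 and 2671 CPM and then 0.530, 285 and 245 CPM. Without the members of the imprinted, leukocyte and interferon lists (52 members left) the block medians were −0.03, −0.16 and −0.05 in WT lines and −0.25, −0.08, −0.74 and −0.46 in lines 13, 13a, 14 and 15. Line 13a is the least low in this block and moved by 0.01 when the lists were left out.

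The genes of cytosolic ribosomal proteins show the displacement within a family that is usually expressed in step. All 14 members of this list were below 0 in line 14, from −1.39 (Rps13) to −0.38 (Rps16), with a median of −0.72. The 62 protein-coding Rpl and Rps genes on the other autosomes had a median of 0.16 in the same line. In each of the other lines the members were also below the family, by less than in line 14, with medians of 0.24, 0.10 and 0.07 against 0.29, 0.18 and 0.12 in WT lines 3, 4 and 5. In lines 13, 13a and 15 they were 0.21, −0.08 and −0.19 against 0.34, 0.08 and 0.06. Rps3, of the small subunit, had 587, 833 and 604 CPM in Prkd3-/- primary cultures 13, 14 and 15, and 835, 566, 343 and 562 CPM in lines 13, 13a, 14 and 15. Its WT values were 496, 486 and 489.9 CPM in primary cultures and 659, 557 and 495 CPM in lines 3, 4 and 5. Line 14 was the lowest of all 7 Prkd3-/- libraries.

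The zinc finger genes give the same contrast at another level. The 82 Zfp members had a median of −0.42 in line 14, with 71 of 82 below 0, while 244 Zfp genes on other autosomes had a median of 0.32. In line 15 the medians were 0.03 and 0.25, in line 13a −0.14 and 0.01, and in the remaining 4 lines between −0.06 and −0.02 against −0.00 to 0.04. The lowest member of the list in line 14 was Zfp36 at −2.24, which codes for an RNA-binding protein that destabilizes inflammatory mRNA and is no DNA-binding repressor of the kind named above.

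Of the 11 members in glycolysis and energy metabolism, 9 were at −0.25 or below in line 14, where the list median was −0.91 and Bckdha, at −0.0047, was the highest. The medians of lines 15 and 13a were also below 0, at −0.46 and −0.27, each with 10 of 11 members below 0, and those of the other 4 lines were between −0.10 and 0.15. Aldoa (aldolase) had 707, 962 and 846 CPM in Prkd3-/- primary cultures 13, 14 and 15 and 861, 759, 310.4 and 534 CPM in lines 13, 13a, 14 and 15. Ldha (lactate dehydrogenase A) had 622, 686 and 699 CPM in these cultures and 1064, 477, 291 and 402 CPM in the lines. For Gpi1 (glucose phosphate isomerase) the values were 241, 281 and 266 CPM and then 263, 260.1, 119.5 and 183 CPM. Line 14 was below every primary culture and every other Prkd3-/- line for each of these 3 enzymes. In WT lines 3, 4 and 5 Aldoa had 647, 610.5 and 754 CPM and Ldha 448, 430.3 and 584 CPM, with primary values of 594 to 618 and 442 to 454 CPM. The lowest ratio of the list was that of Ucp2, a mitochondrial carrier that is abundant in macrophages, at −4.04. Ucp2 was at −1.57 or below in all 7 lines.

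The growth factor signaling list and the list of matrix and adhesion genes of fibroblasts included some of the larger differences. None of the 10 fibroblast markers is a member. In the growth factor list 16 of 17 members were below 0 in line 14 (median −1.07) and 9 were at −1 or below, while the medians of the other 6 lines were between −0.07 and 0.12. Axl, a receptor tyrosine kinase for Gas6, had 722, 767 and 923 CPM in Prkd3-/- primary cultures and 1133, 1005, 245 and 1054 CPM in lines 13, 13a, 14 and 15. In WT cells Axl had 540.2, 553 and 591 CPM and then 1170, 488 and 589 CPM in lines 3, 4 and 5, on a separate scale. Line 14 was the lowest of the 7 Prkd3-/- libraries and the other 3 lines were above their primary cultures. Tead1, the DNA-binding partner of YAP, had 502, 362 and 552 CPM in Prkd3-/- primary cultures and 464, 407, 217 and 463 CPM in the lines. Mapk3 (ERK1) was the member of this list above 0 in line 14, at 0.36. Of the matrix and adhesion list, 9 of 13 members were below 0 in line 14, with a median of −0.66. Serpinh1, the collagen chaperone and the member with the highest level per kb of exons among those that share no exon bases, had 1875, 2319 and 1657 CPM in Prkd3-/- primary cultures and 1767, 1666, 1036 and 1248 CPM in lines 13, 13a, 14 and 15. Its WT values were 1580, 1601 and 1585 CPM and then 2064, 2317 and 1441 CPM. Actn4, an actin crosslinker, had 1133, 925 and 1380 CPM in Prkd3-/- primary cultures and 1516, 954, 401 and 925 CPM in lines 13, 13a, 14 and 15. Its WT values were 929, 904 and 932 CPM in primary cultures and 1754, 711 and 743 CPM in lines 3, 4 and 5. Among Prkd3-/- libraries Actn4 was thus lowest in line 14, and among WT libraries it was highest in line 3.

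**Figure D4:**
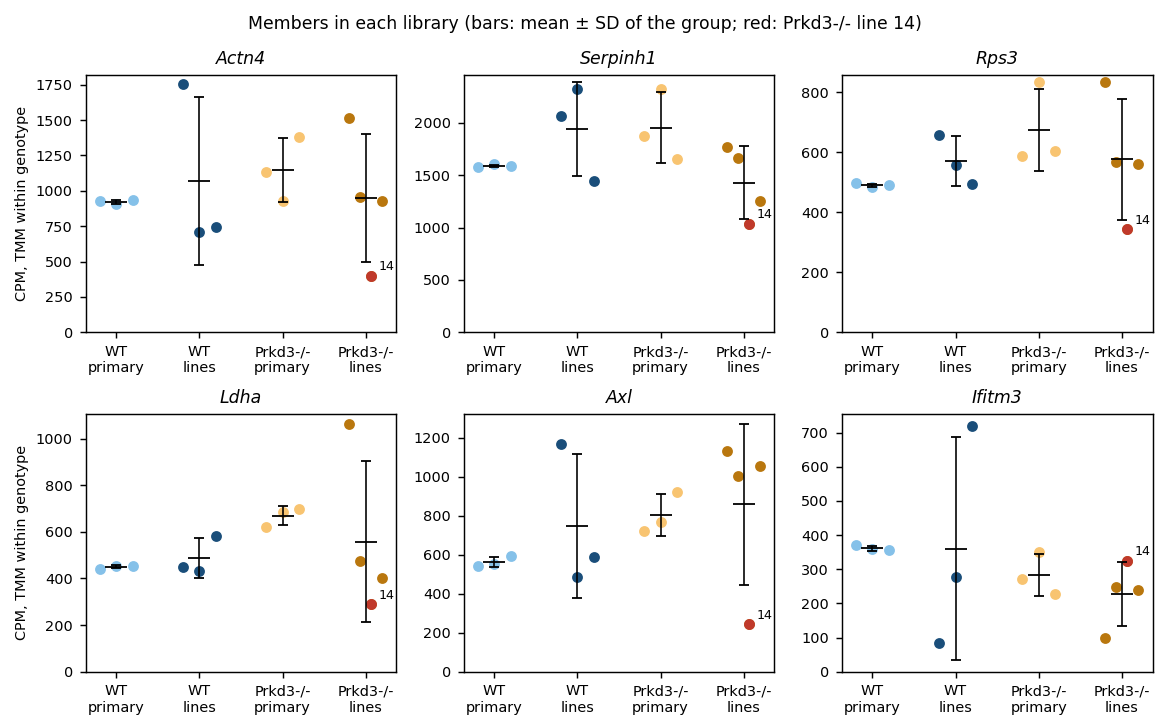
CPM (y axis, scaled by TMM within each genotype) of 6 named members in the 13 libraries by group (x axis), chosen after their values were seen. Points are libraries, black bars the mean ± SD of the group, and the red point is line 14. For Actn4, Serpinh1, Rps3, Ldha and Axl line 14 is the lowest Prkd3-/- library, and for Ifitm3 it lies at 326 CPM, within the primary range of 227 to 349 CPM.

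All 18 members of the cell cycle and replication list were below 0 in line 14 (median −0.81), and all 15 of the DNA repair list, with which it shares Lig1, Pold1 and Pold3 (median −0.91). The cell cycle list also reached −0.80 in WT line 5 and 1.23 in line 13, so its median is not particular to line 14. The DNA repair medians in the other lines were between −0.43 (WT line 5) and 0.62 (line 13). Ercc1, a nuclease subunit of nucleotide excision repair, had 35.8, 33.0 and 44.9 CPM in Prkd3-/- primary cultures and 54.5, 33.2, 11.1 and 29.4 CPM in lines 13, 13a, 14 and 15. Mki67, the proliferation marker Ki-67, had 303, 70.6 and 251 CPM in these cultures and 514, 91.4, 94.1 and 276 CPM in the lines. Primary culture 14 was the lowest of all for Mki67, and against that culture alone line 14 was above 0, at 0.46, whereas against the mean of 3 cultures it was at −1.09. Ccnd1 (cyclin D1) was the highest member of the cell cycle list in line 14, at −0.11, with 599 CPM against 693, 495 and 824 CPM in the primary cultures. In line 15 Ccnd1 had 1114 CPM, above all 3 cultures.

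Of 12 members among p53 targets, apoptosis and stress genes, 11 were below 0 in line 14, with a median of −1.03, and the medians of the other 6 lines ranged from −0.51 in line 13 to 0.10 in WT line 5. Bax, the pore-forming effector of apoptosis, had 131, 175 and 143 CPM in Prkd3-/- primary cultures and 99.0, 107, 71.5 and 146 CPM in lines 13, 13a, 14 and 15. Nupr1, a stress-induced regulator, had 35.9, 42.8 and 45.9 CPM and then 53.05, 18.5, 7.71 and 10.8 CPM. Among 18 members from the region that is amplified with CCND1 in human cancers, 17 were below 0 in line 14 (median −0.63), and Wnt11 was the exception. Their medians in the other 6 lines were between −0.19 and 0.12, so no line had a raised median there beyond 0.12. Cttn (cortactin) had 463, 368 and 464 CPM in Prkd3-/- primary cultures and 407, 369, 264 and 432 CPM in the lines. Of 21 imprinted members, 16 were below 0 in line 14 (median −0.58), and in line 13 the median was −0.74.

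**Figure D5:**
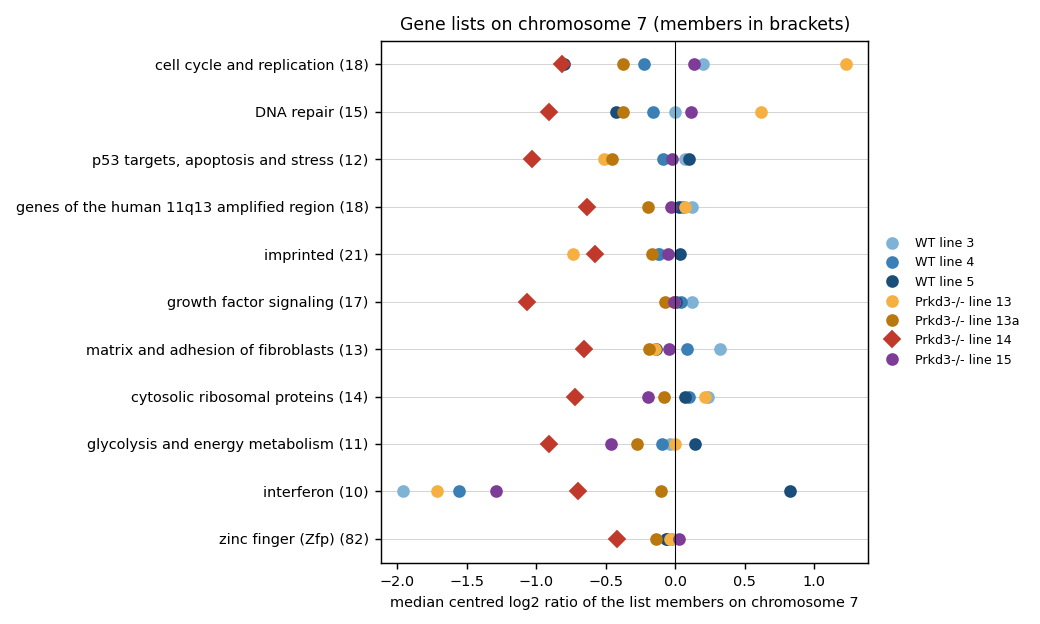
Median centred log2 ratio (x axis) of the chromosome 7 members of 11 gene lists (y axis, number of members in brackets) in the 7 lines. Red diamonds are line 14, which is below 0 in all 11 lists and the lowest line in all but the imprinted list, where line 13 is lower, and the interferon list, where 4 lines are. The leukocyte list is left out because its medians reach −4.84.

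The leukocyte and interferon genes followed another pattern. The 9 leukocyte members had medians between −4.84 (line 14) and −3.74 (WT line 5) in 6 lines and −1.35 in line 13a, beside the macrophage marker sums given above, whose part in these ratios was not tested. Below 0 were 8, 9 and 7 of them in WT lines 3, 4 and 5, and 8, 7, 9 and 8 in lines 13, 13a, 14 and 15. The highest was Lsp1 in line 13, at 1.02, and Siglecg in the other lines. Siglecg was at 0.66, −0.74 and 2.32 in WT lines 3, 4 and 5, and at 0.69, −2.42 and 1.25 in lines 13a, 14 and 15. Tyrobp, an adaptor of myeloid receptors, had 36.5, 36.9 and 38.9 CPM in WT primary cultures and 1.15, 0.884 and 2.43 CPM in WT lines 3, 4 and 5. It had 6.45, 58.9 and 11.2 CPM in Prkd3-/- primary cultures and 0, 9.84, 0.0805 and 0.263 CPM in lines 13, 13a, 14 and 15, where the 0 allows up to 0.0570 CPM. With the leukocyte and interferon lists left out, the chromosome 7 median of line 14 was −0.62, as with them. The 10 interferon members had a median of 0.83 in WT line 5, −0.70 in line 14 and −1.96 in WT line 3. Ifitm3, an antiviral membrane protein and the strongest member of block 21, had 272, 349 and 227 CPM in Prkd3-/- primary cultures and 99.7, 247, 326 and 239.8 CPM in lines 13, 13a, 14 and 15. In WT cells it had 369.9, 359.7 and 356 CPM in primary cultures and 83.8, 277 and 721 CPM in lines 3, 4 and 5. Its ratio in line 14 was 0.26, and −0.0501 against primary culture 14 alone, while Oat (ornithine aminotransferase), from the block before, was at −0.80.

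A small number of members were higher in line 14 than in its primary cultures. The 15 at 1 or above, 1.35% of the members against 6.62% of the other autosomal genes, were Ifitm1, Wnt11, Ntrk3, Cebpa, Adamtsl3, Gm45091, Dlg2, Pnmal2, Cemip, Lrp3, Kcnq1ot1, Fzd4, Anpep, Rab38 and Fcgrt, named because they are all members past this value. 5 of them, Adamtsl3, Dlg2, Cemip, Fzd4 and Rab38, lie in block 13. Ifitm1, beside Ifitm3, had 1.84, 1.01 and 1.10 CPM in Prkd3-/- primary cultures and 0.652, 1.76, 49.2 and 0.138 CPM in lines 13, 13a, 14 and 15, a ratio of 5.18 in line 14. Wnt11, a secreted ligand of the noncanonical Wnt pathway, had 2.06, 1.15 and 2.68 CPM and then 0.825, 1.05, 44.0 and 0.678 CPM. Cebpa, a transcription factor of adipocyte and myeloid cells, had 9.65, 19.7 and 9.03 CPM and then 6.50, 20.4, 67.5 and 3.10 CPM. For these 3 genes line 14 was above all 6 other Prkd3-/- libraries. Adamtsl3, a secreted matrix protein, had 53.5, 17.5 and 42.1 CPM and then 54.7, 30.0, 162 and 196 CPM, so that it was higher in line 15 as well.

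Across all lines, 97 members (8.71%) were below 0 in every one, against 5.77% of all autosomal genes, and 3 (0.269%) were above 0 in every one, against 4.49%. The 19 members (1.71%, against 1.28% of all) at −1 or below in all 7 lines included Tyrobp, Itgam, Coro1a, Cd37, C5ar1 and Fes, which are expressed in blood cells, and Apoe, Ctsc, Ucp2, Adam8, Homer2 and Igf2os.

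Lines 13 and 13a carry the same number yet differed on this chromosome, and they differed on others as well. The medians of lines 13 and 13a were 0.44 and −0.02 on chromosome 18, and −0.42 and −0.18 on chromosome 4. The ratio of 13a to 13 had a median of −0.15 over the members and of −0.41 to 0.34 over the blocks. Its quartiles were −0.56 and 0.43 in members and −0.47 and 0.61 in the other autosomal genes. Line 13 ranged from −0.38 to 0.29 between its blocks, the widest range of the 7 lines, and line 13a from −0.25 to −0.06, the narrowest. The sum of the macrophage markers was 17.8 CPM in line 13 and 189 CPM in line 13a. Over the members, deviations of line 13a had a correlation of −0.35 with those of primary culture 13 and of 0.38 with those of culture 14, whose macrophage marker sum was also high. The part of these in the difference was not tested.

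The level of the chromosome was also compared between the primary cultures of both genotypes. The median log2 ratio of the members to the mean of the 6 primary libraries, less the autosomal median, was 0.0108, −0.00723 and 0.00784 in WT and 0.00706, −0.0140 and 0.00104 in Prkd3-/- cultures. The difference of means, Prkd3-/- less WT, was −0.00576 (exact permutation test, two-sided, p = 0.5, n = 3 per genotype, for which 0.1 is the smallest p possible). Without Prkd3-/- culture 14 the difference was 0.000436.

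Single members were compared between Prkd3-/- and WT primary cultures with edgeR's quasi-likelihood test over 20403 genes, a contrast that the choice of the chromosome did not use. The thresholds of an adjusted p under 0.01 and a |log2 fold change| of at least 1 were passed by 4 of the 1114 members, against 0.765% of all genes tested (0.23% higher and 0.534% lower in Prkd3-/-). At an adjusted p under 0.05 without a limit on the fold, 31 members were higher and 27 lower, against 2.56% and 3.48% of all genes (6.04% together). Rps13-ps2, a processed pseudogene, was higher in Prkd3-/- cultures, with 4.71, 4.24 and 3.67 CPM in WT and 29.5, 44.6 and 31.2 CPM in Prkd3-/- cultures (log2 fold change 3.06, SE 0.20, edgeR adjusted p = 0.00130). As for other pseudogenes, reads of its parent may be counted on it, which was not tested. Cemip, a hyaluronan-degrading protein, was lower, with 260.7, 269 and 260.3 CPM in WT and 101.9, 119.6 and 115 CPM in Prkd3-/- cultures (log2 fold change −1.23, SE 0.09, edgeR adjusted p = 0.00166). Gm3375, a predicted gene, was lower with 40.7, 37.2 and 40.2 CPM against 14.05, 16.4 and 13.7 CPM (log2 fold change −1.41, SE 0.09, edgeR adjusted p = 0.00142). Hddc3, a phosphohydrolase, was lower with 27.7, 25.9 and 25.9 CPM against 9.27, 11.6 and 7.49 CPM (log2 fold change −1.48, SE 0.16, edgeR adjusted p = 0.00875). For all 4 the genotypes did not overlap, which the thresholds that picked them make nearly certain, so it adds no support. DESeq2 called 27 members (2.42%, against 2.48% of all genes). The edgeR count of members fell to 0 without any 1 of the WT cultures and to 1 without Prkd3-/- culture 15. It rose to 47 without Prkd3-/- culture 14. The calls over all genes moved the same way. They were 0 higher and 2 lower without WT culture 3 or 4, and 6 higher and 21 lower without WT culture 5. Without Prkd3-/- culture 15 they were 20 higher and 55 lower, and without culture 14 322 higher and 1134 lower of 20428. The macrophage marker sum of culture 14 is given above, and its part was not tested. The genotypes were also counted in separate tables, so that genotype and table cannot be told apart. Of the 12 gene lists, the matrix list had 1 member called (Cemip) and the others had none.

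The same test between immortalized and primary libraries used the contrast from which the chromosome was chosen, so its counts are given only as values. In WT cells 16 members were called, all lower in the lines, against 1.82% of 19836 genes tested (1.76% lower and 0.0605% higher), and 6 of the 16 were leukocyte list members. At an adjusted p under 0.05 there were 10 higher and 31 lower members, against 0.696% and 4.57% of all genes (5.27% together). DESeq2 called 33 members (2.96%, against 4.06% of all genes). With the number as a replicate block in a paired fit, 0 members and 0 of all 19836 genes were called, with 115 members at an unadjusted p under 0.05. In Prkd3-/- cells 0 were called by edgeR, against 0.0% of all 20298 genes tested, with 76 members at an unadjusted p under 0.05. DESeq2 called 7 (0.628% of the members, against 0.553% of all genes). In these Prkd3-/- fits the 4 lines stand as replicates, and a shift of 1 line enters them as spread. The share of all genes at an unadjusted p under 0.05 was not counted, so nothing is read from the 115 and 76 members.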

How the data were processed

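RNA of 13 MEF libraries was measured by poly(A) RNA sequencing. Values are whole-number counts of read pairs per gene as deposited by the authors, in 1 table per genotype. For the WT table the study gives STAR 2.7.10a on mm10, SAMtools 1.18, featureCounts of Subread 2.0.6 and Ensembl GRCm38 gene models, and its header shows unstranded counting with overlapping genes allowed, so a read in shared exons counts for each gene. For the Prkd3-/- table these steps are not given in the sources used here. Of 55487 gene IDs, 55141 were matched to symbols.

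CPM was scaled by TMM (edgeR 4.0.16, R 4.3.3) within each genotype, so levels of the 2 tables are on separate scales, except in the primary comparison, where 6 libraries were scaled together. Ratios used a pseudocount of 0.1 CPM, blocks held 50 members with a limit of 0.25, and a step needed 50 members on each side. Genes were tested with edgeR's quasi-likelihood test (robust, TMM, filterByExpr) with Benjamini-Hochberg adjustment at 0.01 and a |log2 fold change| of 1. DESeq2 1.42.0 was an alternative. Counts were also simulated for the genotype comparison (20343 genes) at a fixed dispersion of 0.01, and called by the adjusted p alone, without the limit on the fold. There 93 of 100 genes changed 2-fold and 100 of 100 changed 4-fold were recovered with 4 false calls. No simulated culture stood apart from its group, so these figures do not give the power or false calls of the test reported here. Libraries of 1 group differed by more than counting noise over the members (chi-square per degree of freedom at least 6.47). Named genes were the strongest member per kb of each block, the 5 strongest of each list, the called members and the neighbours of steps, and others are named as such.

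WT primary cultures came from different embryos and a line carries the number of its culture, which pairs them. Deviations of same-numbered WT samples had correlations of −0.09, 0.04 and −0.08. For Prkd3-/- lines 13, 13a, 14 and 15 they were 0.15, −0.35, 0.06 and 0.04. Line 13 had 0.39 with culture 15, and WT line 3 had 0.15 with culture 5. Since the WT pairs also had low correlations, these values do not decide whether the Prkd3-/- numbers mark pairs. The main results did not use the numbers, and results paired by number are given as alternatives for both genotypes. For Prkd3-/- samples the labels do not say that cultures come from separate embryos, so p-values may there measure technical spread. The members and lists were chosen with earlier results of these data known.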

Additional observations from a re-analysis of the deposited data

Results flagged for a closer look

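The values here are the ratios from which the chromosome was chosen, so they describe the lines and test nothing. In 7 of 119 quantities of the 4 Prkd3-/- lines, 1 line was far from the other 3 by Dixon's gap ratio. The line concerned was line 14 for block 5 (−0.59), block 14 (−0.86), the growth factor list (−1.07), Axl (−1.66) and Pak1, a kinase downstream of Rac and Cdc42 (−0.81). It was line 13 for Hddc3 (−0.95) and for the pseudogene Rpl17-ps10 (0.63). The chromosome 7 median of line 14 was not flagged by this ratio, and neither were its other blocks. Single genes also enter the blocks and lists, so the 119 quantities overlap and their number is not set against chance. Of single genes, 5.02% of all 14154 autosomal genes and 5.48% of the members passed the same limit.

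In 5 of the 119 quantities every line of one genotype lay above 0 and every line of the other below, and the difference was not tested. Of single genes, 2.42% of the members and 1.14% of all autosomal genes did so. The mean over Prkd3-/- lines less that over WT lines was −0.29 for block 9, −0.35 for the growth factor list, −0.33 for Calm3 (a calmodulin gene), −0.91 for Atf5 (a stress-responsive transcription factor) and −0.52 for Ric8a (a chaperone of G protein subunits).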

How the results depend on the processing

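The median of line 14 lay between −0.69 and −0.53 over 17 alternatives, that of line 13a between −0.18 and −0.10, that of line 15 between −0.16 and −0.08 and that of line 13 between −0.10 and 0.01. In all 121 comparisons the medians moved by less than the SD between lines of the genotype, which line 14 itself makes large for Prkd3-/- (0.272, and 0.0920 without it). Against the smaller SD, 1 of 53 comparisons of lines 13, 13a and 15 moved further, that of line 13 with the counts of 13 and 13a summed (−0.10 against 0.00). The percent of chromosome 7 blocks at or below the limit moved with the settings. With 25 genes per block it was 2.22, 6.67 and 4.44 in WT lines 3, 4 and 5, 15.6 in line 13 and 22.2 in line 13a. With 100 genes it was 9.09 in line 13. In windows of 10 Mb it was 13.3, 20.0 and 6.67 in lines 13, 13a and 15. At a limit of 0.2 it was 13.6, 31.8 and 40.9 in lines 13, 13a and 15, and at 0.4 it was 0 and 4.55 in lines 13 and 15. With own primary culture as replicate block it was 13.6 in line 13a. With 25 genes per side the step was −0.48, −0.41 and −0.29 in WT lines 3, 4 and 5, against −0.19, −0.17 and 0.09 with 50, so that WT line 5 changed sign.

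Of members that differed between primary genotypes there were 58 at an adjusted p under 0.05 (against 6.04% of all genes) and 27 by DESeq2 (against 2.48%). There were 9 without a filter, where 109 of all 33766 genes were higher and 226 lower. With 13 libraries in 1 fit there was 1, where 12 of all 21197 genes were higher and 24 lower. Without 1 library there were 0 to 47 (0 without any WT culture, 47 without Prkd3-/- culture 14), and the calls over all genes moved the same way. For immortalized against primary WT cells there were 41 at an adjusted p under 0.05 (against 5.27% of all genes) and 33 by DESeq2 (against 4.06%). With the replicate block in the paired fit there were 0, as over all genes. Without 1 library there were 4 to 29 (5, 4 and 6 without primary culture 3, 4 and 5, and 27, 18 and 29 without line 3, 4 and 5). Over all genes 48, 50 and 66 were then lower without primary culture 3, 4 and 5, and 458, 328 and 705 without line 3, 4 and 5. For Prkd3-/- cells DESeq2 called 7 and the replicate block 0. The difference in primary level was −0.0211 to 0.000436 without 1 library. Against own culture (replicate block), line 14 ratios changed sign for Ifitm3 (−0.0501), Igf1r (0.21), Numa1 (0.20) and Mki67 (0.46). The cause was not tested. In the last block, alternatives without the gene lists, like those without pseudogenes or Zfp genes, were chosen after seeing the data.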
